A study of Arabidopsis thaliana with 12 samples.

Results

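Unspliced 3' UTR peaks of N6-methyladenosine (m6A) were compared between a mettl16 mutant and Col-0, the reference accession of Arabidopsis thaliana. They are the rows of the authors' deposited table of peak differences that carry the annotation 3' UTR and consist of 1 block, so that the peak lies in the genome without an intron inside it. The rule took 2312 of the 6437 listed peaks, in 2252 of the 6003 genes with a peak. In each of the 2312 rows the single block was as long as the peak itself, which follows from the rule. The 3' UTR annotation was taken as deposited and was not tested. The other listed peaks were 2768 peaks of several blocks in 3' UTRs, 497 peaks in 5' UTRs and 860 peaks in other exons.

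m6A is a methyl mark on adenosines inside messenger RNA. Writer enzymes place it, demethylases can remove it, and reader proteins with a YTH domain bind it. In plants most of it lies near the stop codon and in the 3' UTR, where a complex around MTA writes it, and the 3' UTR also holds signals for polyadenylation, stability and translation. METTL16 is a methyltransferase separate from that complex, known in animals for methylating the U6 spliceosomal RNA and a methionine adenosyltransferase transcript.

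The 12 samples form 4 groups, with 3 biological replicates each: m6A immunoprecipitates of mettl16 and of Col-0, and RNA-seq libraries of mettl16 and of Col-0. All came from the aerial part of 3-week-old plants of the Col-0 background grown in long days, in a study of m6A in the floral transition. The labels give neither the mutated locus nor the allele, and no other treatment was named. Peak differences are given as 1 value per peak with no value per sample, so no spread between replicates can be shown for m6A. Transcript levels are FPKM (fragments scaled for the length of the transcript and the size of the library) for each of the 6 RNA-seq libraries, which are also the input of the m6A assay.

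FIO1 (AT2G21070), the Arabidopsis homologue of METTL16 by general knowledge, had 0.292, 0.148 and 0.197 FPKM in the mettl16 libraries, against 1.98, 2.12 and 2.31 FPKM in Col-0. Its change was -1.37 on the log2(FPKM + 1) scale (limma adjusted p = 4.94e-07) and had no listed peak. FPKM values summed to between 699031 and 706690 in mettl16 and between 714685 and 718824 in Col-0, and the sequencing depth behind them is unknown. On the log2(FPKM + 1) scale Pearson's r between libraries was 0.994 to 0.996 within a genotype and 0.957 to 0.959 between genotypes. Leaf markers were abundant, with 11 genes at a summed level of 66831 to 71747 FPKM in mettl16 and 83057 to 84292 FPKM in Col-0, whereas root markers summed to 35.5 to 36.2 FPKM in mettl16 and 28.7 to 30.3 FPKM in Col-0. Of 10 root markers 4 were not among the listed genes. Floral organ identity genes summed to 97.5 to 98.8 FPKM in mettl16 and 10.8 to 11.4 FPKM in Col-0, and the 9 matched anther and pollen markers to 9.63 to 11.9 FPKM in mettl16 and 0.0909 to 0.162 FPKM in Col-0. The part of this difference in tissue in the values that follow was not tested, and more cells of a type and more RNA per cell cannot be told apart in such samples.

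The unspliced peaks were narrower than spliced 3' UTR peaks, and most of them ended at the end of the transcript. Their median width was 386 nt, with quartiles at 269 and 479 nt and extremes of 59 and 1530 nt. Peaks of several blocks in 3' UTRs spanned a median of 744 nt, with a median of 532 nt inside blocks. Peaks of 1 block elsewhere were narrower than the unspliced 3' UTR peaks, at medians of 238 nt in 5' UTRs and 240 nt in other exons. Distances to the transcript end were summarized for the unspliced 3' UTR peaks only. The 3' edge fell exactly on the annotated transcript end in 1311 of the 2312 peaks. Another 780 ended before it, at a median genomic distance of 60 nt, and 541 of them within 100 nt. The distances stood on a grid: 655 of the 780 were within 2 nt of a multiple of 30 nt. The other 221 peaks ran past the annotated end, by a median of 206 nt and at most 762 nt. Of those ending early 49 did so by more than 500 nt, and the farthest lay 5469 nt away. Of all unspliced peaks 389 overlapped another listed gene, 362 of them on the opposite strand only and 27 on the same strand. The table gives the strand of the assigned gene and not of the peak, so for these 389 the transcript that carries the mark is uncertain.

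**Figure D1:**
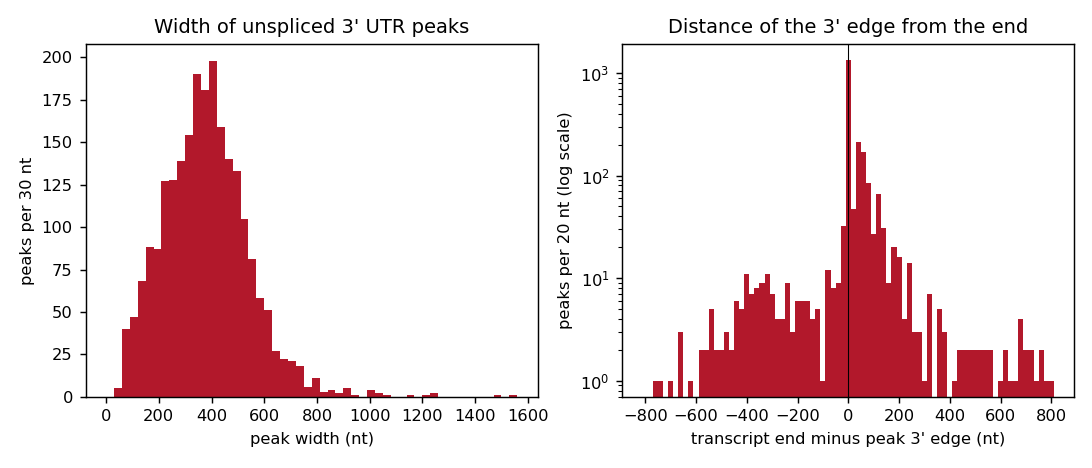
Left, widths of the unspliced 3' UTR peaks in nt, as peaks per 30 nt. Right, distance from the peak's 3' edge to the annotated transcript end in nt, negative where the peak runs past the end, as peaks per 20 nt on a log scale; the few peaks beyond the axis are not drawn. Widths centre on a median of 386 nt, and the tallest bar of the right panel stands at the transcript end, where 1311 peaks have their edge.

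m6A was lower in mettl16 at most unspliced peaks with a called difference. At the authors' FDR under 0.05, 1217 of the 2312 peaks were lower in mettl16 (52.6%) and 255 were higher (11%), while 840 were not called. Over all 6437 peaks 51.6% were lower, 17.6% higher and 69.2% called either way, so the share of lower peaks was near the background and that of higher peaks was below it. The median log2 fold (mettl16 over Col-0) was -0.271, with quartiles at -0.432 and -0.125 and extremes of -3.24 and 4.17. Called lower peaks had a median of -0.321 and called higher peaks one of 0.379. Changes were mostly small: 21 called peaks were lower and 13 higher by at least 1 on the log2 scale, against 0.979% and 0.544% of all peaks. Few listed peaks lay near no change. Only 36 of the 2312 had an absolute fold under 0.1, and the smallest was 0.0647. The sources used here do not say whether peaks with smaller differences had been left out, so the shares describe listed peaks.

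The unspliced peaks had values nearer to those of peaks in 5' UTRs than to those of the spliced peaks in 3' UTRs. Lower peaks made up 82.7% of the called unspliced peaks, 64.4% of called peaks with several blocks in 3' UTRs, 85.4% in 5' UTRs and 87.6% in other exons. Medians followed the same order, at -0.271 for unspliced 3' UTR peaks, -0.161 for those of several blocks, -0.277 in 5' UTRs and -0.359 in other exons. The median of all listed peaks was -0.227, so a global shift enters every one of these shares. After centring the folds on that median, 922 called unspliced peaks were lower and 549 higher, a lower share of 62.7%, against 37.4% for several blocks, 65.3% in 5' UTRs and 83.4% in other exons. The deposited FDR was kept in these counts and only the sign was read anew. A peak called lower with a negative fold above that median thus counts as higher after centring, here and in the pathways below. The order of the classes was therefore kept while the excess of lower peaks shrank. Peaks are not replicates and no value per sample is listed, so the difference between classes was not tested.

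**Figure D2:**
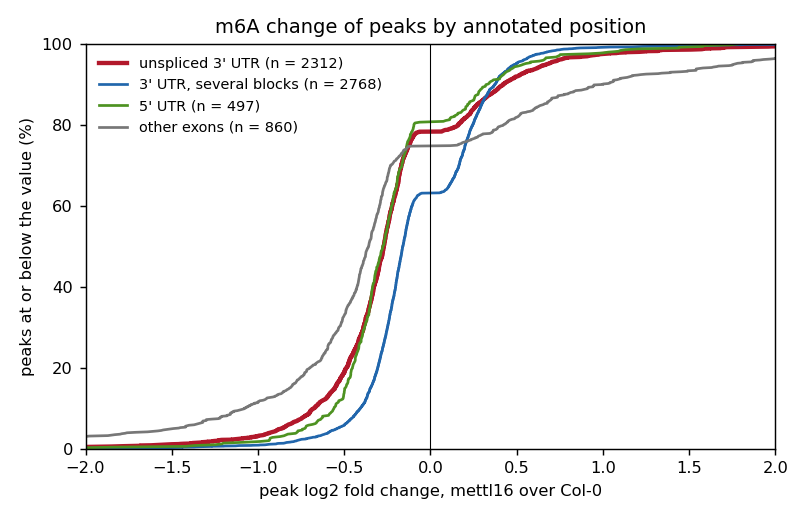
Percent of peaks at or below each log2 fold (mettl16 over Col-0) for unspliced 3' UTR peaks (thick red line, n = 2312), 3' UTR peaks of several blocks (n = 2768), 5' UTR peaks (n = 497) and peaks in other exons (n = 860); folds beyond the axis are not drawn. At 0, 78.3% of the unspliced peaks lie below, against 63.2% of those of several blocks, and the flat stretch around 0 shows how few listed peaks have a small fold.

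Among 3' UTR peaks the fold rose step by step with the number of blocks. The median was -0.271 with 1 block, -0.203 with 2, -0.152 with 3, -0.099 with 4 and 0.116 with more than 4 blocks. Lower peaks made up 82.7%, 75.3%, 62.4%, 51.4% and 45.7% of the called peaks in the same order. The peaks with 2 blocks, which the rule just left out, were thus nearer to the unspliced ones than any other spliced group. Peaks with more blocks were also longer and stronger: the authors' p-value of the peak itself was listed at 0 in 30.7% of unspliced peaks and 69.2% of those of several blocks. The part of peak strength in the gradient was not tested beyond the ranges of length and expression that follow.

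Within ranges of equal length the unspliced peaks kept lower medians than the spliced ones, except among the shortest. At 300 to 400 nt inside blocks the median was -0.300 for 562 unspliced and -0.224 for 240 spliced peaks, and at 500 to 700 nt it was -0.201 for 442 unspliced and -0.131 for 1536 spliced peaks. Below 200 nt it was -0.457 for 281 unspliced peaks and -0.594 for the 15 spliced ones. Within ranges of expression the picture was alike. For genes with 10 to 20 FPKM the median was -0.257 for unspliced and -0.161 for spliced peaks, and for genes with at least 50 FPKM it was -0.225 against -0.143. Genes under 1 FPKM had -0.237 for unspliced and -0.242 for spliced peaks.

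**Figure D3:**
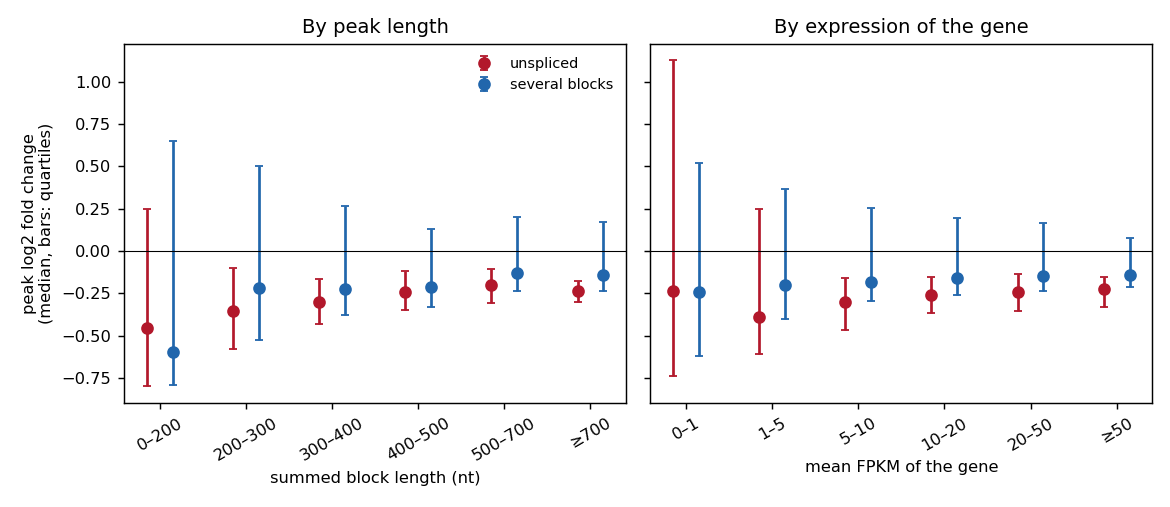
Median log2 fold (mettl16 over Col-0, points) and quartiles (bars) of unspliced (red) and spliced (blue) 3' UTR peaks, by summed block length in nt (left) and by mean FPKM of the gene (right). The red points lie below the blue ones in every range except under 200 nt, where 15 spliced peaks give -0.594, and under 1 FPKM, where the medians are -0.237 and -0.242.

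Wider unspliced peaks were called more often and had smaller folds. From the narrowest to the widest of 4 equal classes, medians were -0.404, -0.317, -0.253 and -0.211, while 39.5%, 60.8%, 74.1% and 80.9% of the peaks were called. Medians differed little with position: the value was -0.264 for peaks ending at the transcript end, -0.298 for those ending before it and -0.243 for those running past it. Peaks with and without an overlapping gene both had -0.271, and without the overlapping ones 1014 of 1923 were lower and 208 higher. Medians over the 5 chromosomes ran between -0.298 (chromosome 3) and -0.248 (chromosome 5).

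A further check used genes that hold peaks of 2 classes, 156 genes with an unspliced 3' UTR peak in all. In 67 genes with an unspliced and a spliced 3' UTR peak the medians were -0.291 for the unspliced and -0.224 for the spliced peaks, and the unspliced one was the lower in 38. In 47 genes with a 5' UTR peak as well, the medians were -0.290 for the unspliced and -0.367 for the 5' UTR peaks. In 44 genes with a peak in another exon they were -0.281 for the unspliced and -0.382 for the exon peaks. The unspliced peak was the lower in 18 of the 47 genes and in 12 of the 44. These 3 sets hold different genes, and the differences within genes were not tested.

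Genes with an unspliced 3' UTR peak changed their transcript level about as often as other genes. Of the 2252 genes, 2244 had FPKM values and 2161 reached a mean of 0.5 FPKM, the minimum for a test. In mettl16 940 of these rose (43.5%) and 513 fell (23.7%) at a limma adjusted p under 0.05, against a background of 41.1% and 23.4% of the 19505 tested genes, or 64.5% either way. The median change was 0.084, against 0.085 over all tested genes, on the log2(FPKM + 1) scale. The 3 values of mettl16 and of Col-0 did not overlap in 1558 of the 2161 genes (72.1%), against 69.8% of all tested genes. Risers were 64.7% of the called genes with FPKM as deposited, 53.8% after median centring (758 rose and 650 fell) and 51.7% after quantile normalization (730 rose and 683 fell). After rescaling each library to an equal FPKM sum, risers were 68.5% (1000 rose and 460 fell). The excess of risers thus depended on the scaling of the libraries.

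Genes with a lower peak rose in RNA more often than genes with a higher peak, and they fell less often. Lower peaks and risers each prevailed, so the number of genes with opposite directions does not by itself show a link. Of 1167 tested genes with a lower peak and no higher one, 567 had more RNA in mettl16 (48.6%) and 235 had less (20.1%). Of 245 genes with a higher peak, 65 had more RNA (26.5%) and 103 had less (42%). The 748 genes without a called peak lay between, with 41% higher and 23.4% lower RNA. Under median centring and quantile normalization of the RNA the excess of risers among genes with a lower peak narrowed. The excess of fallers among genes with a higher peak grew. Rescaling each library to an equal FPKM sum did the reverse. It gave 601 risers and 210 fallers among genes with a lower peak, and 74 risers and 93 fallers among genes with a higher peak. Joint counts with centred peak folds were not made. Among genes with a lower peak 457 rose and 312 fell after median centring, and 449 rose and 329 fell after quantile normalization. Among genes with a higher peak 51 rose and 124 fell after median centring, and 46 rose and 124 fell after quantile normalization. Median RNA changes with FPKM as deposited were 0.118 for genes with a lower peak, -0.065 for genes with a higher peak and 0.080 for genes without a call. Across the 2161 genes, peak fold and RNA change had a Spearman's rho of -0.154 and a Pearson's r of -0.143, and -0.2 and -0.211 across the 1653 genes with at least 5 FPKM. The RNA-seq libraries are the input of the m6A comparison, so both measures may share their errors, and genes are not replicates; the part of this shared input was not tested.

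Peak folds differed most between the ends of the RNA scale. Genes whose RNA fell by more than 1 had a median peak fold of 0.152 (34 genes), those that fell by 0.5 to 1 had -0.132 (114 genes), and those whose RNA moved by less than 0.25 had -0.257 when lower (492 genes) and -0.267 when higher (635 genes). Genes whose RNA rose by at least 1 had -0.382 (83 genes).

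**Figure D4:**
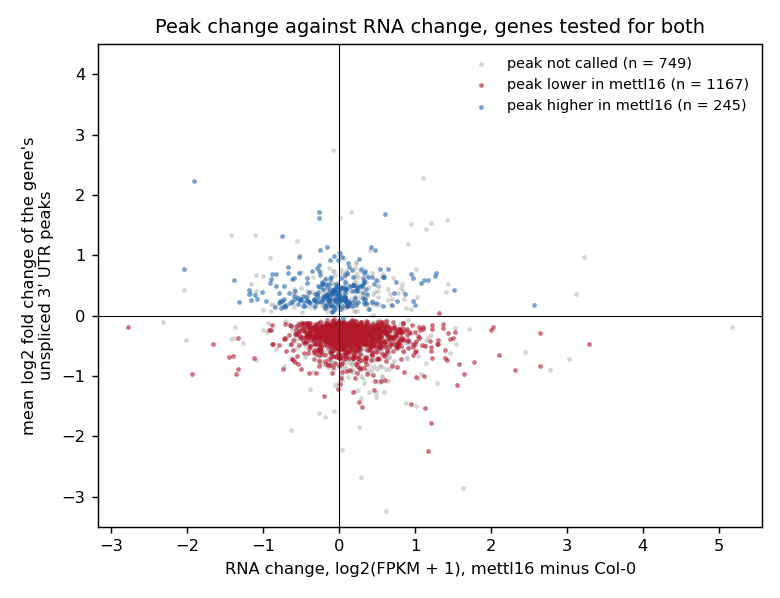
RNA change (log2(FPKM + 1), mettl16 minus Col-0) on the x axis against the mean log2 fold of a gene's unspliced 3' UTR peaks (mettl16 over Col-0) on the y axis. Red points are 1167 genes with a lower peak, blue points 245 genes with a higher peak, and grey points 748 genes without a called peak and 1 with both. Red points spread to the right of 0 and blue points to the left, with wide overlap (Spearman's rho -0.154).

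The lower peaks with the smallest FDR in the authors' deposited table lay in genes for protein folding, plastoglobules and peroxide removal, and in most of them the transcript rose. The first was in cpHsc70-2 (AT5G49910), a chloroplast HSP70 chaperone, at chr5:20305902-20306469 of TAIR10 on a plus-strand gene. Its log2 fold was -0.597 with a log10 FDR of -434. Its transcript had 435, 435 and 437 FPKM in the mettl16 libraries, against 217, 220 and 217 FPKM in Col-0, a change of 1.00 (SE 0.0219, limma adjusted p = 5.47e-10). The groups were far apart, with all mettl16 values above all Col-0 values. AT5G49920 overlaps this peak on the opposite strand. Whether the deposited FDR takes in the spread between replicates is not known. The called share of unspliced peaks rose from 26.3% for genes under 1 FPKM to 94.8% for genes with at least 50 FPKM. A small FDR thus goes with abundance as well as with the size of a change.

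CPN60A (AT2G28000), the alpha subunit of the chloroplast chaperonin that folds Rubisco, had a peak at chr2:11929001-11929389 with a log2 fold of -0.581 (log10 FDR -153). Its RNA stood at 457, 473 and 462 FPKM in mettl16 and at 255, 264 and 258 FPKM in Col-0, a change of 0.84 (limma adjusted p = 4.4e-09). FIB (AT4G04020), a fibrillin of plastoglobules, had a peak fold of -0.83 (log10 FDR -188). Its transcript level was 294, 301 and 285 FPKM in mettl16 against 175, 184 and 180 FPKM in Col-0 (limma adjusted p = 3.63e-08). CAT2 (AT4G35090), a leaf catalase that breaks down photorespiratory peroxide, had a fold of -0.381 at a peak that ended 328 nt before the transcript end. It had 1186, 1201 and 1186 FPKM in mettl16 against 666, 690 and 657 FPKM in Col-0 (limma adjusted p = 3.58e-09). In each of these genes the mark per listed peak was lower while the transcript was higher in all 3 mettl16 libraries.

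AT5G28500, the remaining gene of the first 5, had a peak fold of -0.464 (log10 FDR -123) and an unstable transcript value. It was listed at 312, 306 and 296 FPKM in mettl16 and at 9.92, 232 and 10.8 FPKM in Col-0. Col-0 replicate 2 stood near the mettl16 libraries, and the change of 3.30 did not pass the test (limma adjusted p = 0.112), while without that library it was 4.75 (limma adjusted p = 1.6e-11).

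Values of 5 further chaperone genes are given here as single cases, picked after their values had been seen. HSP81-3 (AT5G56010), a cytosolic HSP90, had a peak fold of -0.701 (log10 FDR -78.8) and 283, 299 and 290 FPKM in mettl16, against 124, 124 and 122 FPKM in Col-0. HSP81-2 (AT5G56030), its close copy, had -0.705 (log10 FDR -44.7) and 293, 297 and 297 FPKM in mettl16, against 115, 112 and 108 FPKM in Col-0. Reads of these copies can be shared, so their separate values are uncertain. Both mitochondrial HSP70 genes had a lower peak: mtHsc70-1 (AT4G37910) had a fold of -0.568, with 120, 128 and 123 FPKM in mettl16 against 45.3, 47.5 and 45.9 FPKM in Col-0. For MTHSC70-2 (AT5G09590) the fold was -0.471, with 62.2, 64.3 and 62 FPKM in mettl16 against 25.5, 25.2 and 24.9 FPKM in Col-0. HSC70-1 (AT5G02500), a cytosolic HSP70, had -0.355, with 1148, 1205 and 1174 FPKM in mettl16 against 744, 766 and 747 FPKM in Col-0. RNA changes of these 5 genes were at least 0.64 (HSC70-1), and each passed the test (limma adjusted p between 3.28e-10 and 2.34e-08).

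The higher peaks with the smallest FDR in the authors' deposited table lay in photosynthesis genes whose transcripts were lower. LHCB4.1 (AT5G01530), the CP29 antenna protein of photosystem II, had a peak at chr5:209939-210445 with a log2 fold of 0.215 (log10 FDR -230). Its transcript had 1309, 1306 and 1237 FPKM in mettl16, against 1962, 2045 and 2000 FPKM in Col-0, a change of -0.64 (SE 0.0282, limma adjusted p = 4.74e-08). The photosystem I subunits PSAL, PSAF and PSAH2 had peak folds of 0.213, 0.269 and 0.198 (log10 FDR -68.7, -58.0 and -33.9). The folds of these 4 genes were small, below the median of 0.379 of called higher unspliced peaks. PSAL had 2476, 2423 and 2441 FPKM in mettl16 and 3127, 3231 and 3185 FPKM in Col-0. PSAF was at 2123, 1912 and 1947 FPKM in mettl16 and at 3386, 3051 and 3417 FPKM in Col-0. For PSAH2 the values were 1543, 1518 and 1463 FPKM in mettl16 and 2176, 2176 and 2252 FPKM in Col-0. All mettl16 values were below all Col-0 values in these 4 genes, and the changes of PSAL, PSAF and PSAH2 were -0.38, -0.72 and -0.55. Quantile normalization turned PSAL to 0.11 (limma adjusted p = 0.0346) and left PSAF at -0.14 and PSAH2 at -0.06 without a call (limma adjusted p = 0.0791 and 0.0871), while LHCB4.1 stayed lower at -0.30.

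CH1 (AT1G44446), the oxygenase that makes chlorophyll b, had the largest fold of these 5 peaks, 0.603 (log10 FDR -45.0). Its transcript was at 65.9, 66.6 and 67.5 FPKM in mettl16, against 123, 128 and 126 FPKM in Col-0, a change of -0.90 (limma adjusted p = 4.64e-09), and it kept its direction under every scaling tried.

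Photosynthesis genes with an unspliced peak were mixed. In the list of 16 antenna genes, of which 2 had such a peak, all 16 transcripts fell with FPKM as deposited. Of all tested genes 23.4% fell. Among 12 genes of the KEGG pathway with an unspliced peak, 5 peaks were lower and 3 higher, against 51.6% and 17.6% of all peaks. Of 12 tested transcripts 5 rose and 5 fell, against 41.1% and 23.4% of all tested genes. After quantile normalization 6 rose and 1 fell. NPQ4 (AT1G44575), which triggers the dissipation of excess light as heat, had a peak fold of -0.265 (log10 FDR -84.8), with 1565, 1590 and 1505 FPKM in mettl16 against 1304, 1336 and 1336 FPKM in Col-0. PSB28 had -0.134, with 382, 375 and 375 FPKM in mettl16 against 297, 293 and 288 FPKM in Col-0. In porphyrin and chlorophyll metabolism 8 of 13 peaks were lower and 3 higher, near the same shares of all peaks. The higher ones were in CH1, HEMA1 and FC2. HEMA1 (AT1G58290), a glutamyl-tRNA reductase at the start of the pathway, had a fold of 0.161, with 257, 266 and 260 FPKM in mettl16 against 362, 366 and 360 FPKM in Col-0. FC2 (AT2G30390), a ferrochelatase, had 0.11 and a higher transcript, with 82.9, 84.8 and 83.9 FPKM in mettl16 against 63.4, 67.5 and 59.7 FPKM in Col-0. These pathways were looked at after the higher peaks with the smallest FDR had been seen. After centring peak folds on the median of all peaks, 3 of the 13 porphyrin peaks were lower and 8 higher.

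**Figure D5:**
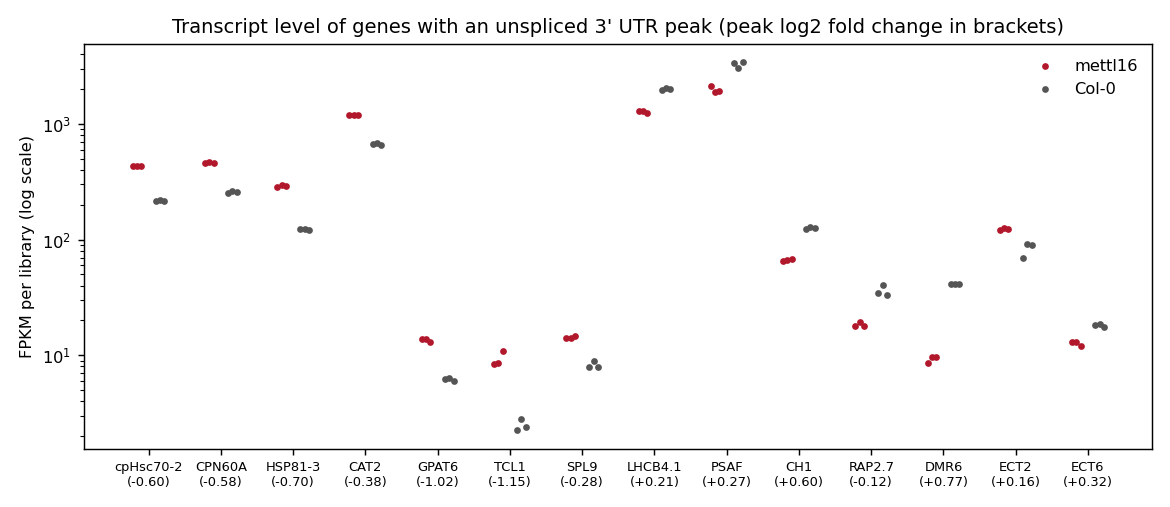
FPKM in each RNA-seq library (log scale) of 14 genes with an unspliced 3' UTR peak, mettl16 in red to the left of Col-0 in grey, with the peak's log2 fold (mettl16 over Col-0) in brackets under the name. The genes were picked by hand. None has a called lower peak with a lower transcript, a pair found in 235 genes, against 567 with a lower peak and a higher transcript. Drawn genes with called lower peaks, such as cpHsc70-2 and CPN60A, have higher transcripts in mettl16. Those with higher peaks, such as LHCB4.1 and CH1, have lower ones, except ECT2, which is higher in both. RAP2.7, whose fold of -0.125 was not called, has a lower transcript.

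The largest folds belonged mostly to weakly expressed genes. The lowest called peak was in GRP20 (AT5G07560), a glycine-rich protein of the oleosin family, with a log2 fold of -2.25 (FDR 0.00251). GRP20 had 1.51, 1.55 and 1.56 FPKM in mettl16, against 0.174, 0.217 and a listed 0 in Col-0. It was followed by AT3G24230, a pectate lyase, with a fold of -1.78 and 2.11, 2.55 and 2.34 FPKM in mettl16, against 0.572, 0.23 and 0.544 FPKM in Col-0. LBO1 (AT3G21420), an oxidoreductase of strigolactone synthesis, had -1.53, with 3.57, 3.42 and 3.44 FPKM in mettl16 against 1.26, 0.875 and 0.994 FPKM in Col-0. RNA of these 3 genes rose by 1.17, 1.21 and 1.14 (limma adjusted p = 3.31e-06, 7.13e-06 and 1.71e-06). The other 7 of the 10 lowest called peaks lay between -1.72 and -1.26, in AT4G12382, LBD15, RIC2, AT2G45870, CDSP32, AT3G62080 and AT4G01920. CDSP32 (AT1G76080), a chloroplast thioredoxin-like protein, was the abundant one among them, with 175, 177 and 176 FPKM in mettl16 against 199, 199 and 207 FPKM in Col-0, at a peak of only 91 nt (fold -1.33, FDR 0.0347). Its transcript fell by 0.19 on the log2 scale (limma adjusted p = 9.88e-05). The RNA call of AT2G45870 (0.27, limma adjusted p = 0.045) was lost in 9 alternatives (limma adjusted p between 0.0507 and 0.316), namely median centring, quantile normalization, no filter on low values, the plain prior variance and leaving out any single library except Col-0 replicate 3.

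The highest called peak was in AT1G71690, a gene of unknown function, with a fold of 2.57 (FDR 0.0158) at a level too low for a test. It had 0.219, 0.293 and 0.336 FPKM in mettl16 against 0.234, 0.346 and 0.379 FPKM in Col-0. FLOT1 (AT5G25250), a flotillin of membrane microdomains, had 2.23 (FDR 0.00955), with 1.31, 1.2 and 1.3 FPKM in mettl16 against 7.41, 8.05 and 7.07 FPKM in Col-0. Its transcript fell by 1.91 (limma adjusted p = 1.33e-08), the largest fall among the 10 genes with the highest folds. ADF8 (AT4G00680), an actin-depolymerizing factor, had a fold of 1.68 and rose in RNA by 0.61 (limma adjusted p = 0.00343), with 1.12, 0.96 and 1.48 FPKM in mettl16 against 0.184, 0.675 and 0.461 FPKM in Col-0. The other 7 had folds between 1.13 and 2.13, in AT1G68630, PFA-DSP1, MLO6, AT2G33710, AT4G00700, EIF2 ALPHA and ABCA7. EIF2 ALPHA (AT5G05470), a subunit of a translation initiation factor, was the strongest expressed, with 22.3, 21.7 and 21.7 FPKM in mettl16 against 16.7, 17.8 and 14.2 FPKM in Col-0 (RNA change 0.42, limma adjusted p = 0.000627). Its peak had a fold of 1.13 (FDR 1.45e-06), ran 162 nt past the transcript end and overlapped AT5G05480 on the other strand. The RNA calls of MLO6 (-0.27, limma adjusted p = 0.0216) and PFA-DSP1 (-0.26, limma adjusted p = 0.0242) were lost without either of Col-0 replicates 1 and 3 and without mettl16 replicate 2, and that of PFA-DSP1 also without mettl16 replicate 3. Without these libraries the limma adjusted p lay between 0.0583 and 0.0765 for MLO6 and between 0.0543 and 0.0816 for PFA-DSP1.

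Among genes with at least 5 FPKM and an RNA change of at least 0.5, each pair of directions had its examples. Lower peaks with higher RNA were led by TCL1 (AT2G30432), a small MYB protein that represses trichomes, with a peak fold of -1.15 (FDR 0.0398), and 8.37, 8.53 and 10.9 FPKM in mettl16 against 2.24, 2.8 and 2.4 FPKM in Col-0. AT1G58983, a ribosomal S5 family gene, had -1.08, and GPAT6 (AT2G38110), an acyltransferase of cutin synthesis, had -1.02 (FDR 2.69e-05). GPAT6 was at 13.7, 13.8 and 12.9 FPKM in mettl16 against 6.23, 6.37 and 5.93 FPKM in Col-0. AT1G58983 has near-identical copies, so its reads may be shared with them.

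Higher peaks with lower RNA included DMR6 (AT5G24530), a salicylic acid hydroxylase that dampens immunity, with a fold of 0.773 (FDR 1.1e-10). It had 8.64, 9.66 and 9.67 FPKM in mettl16 against 41.2, 41.7 and 41.3 FPKM in Col-0, a change of -2.04 (limma adjusted p = 6.59e-10). WRKY47, a transcription factor, had a fold of 0.807 with 4.65, 5.29 and 4.95 FPKM in mettl16 against 8.31, 8.53 and 8.76 FPKM in Col-0. PP2-A13, a phloem protein, had 0.715 with 4.06, 3.78 and 4.26 FPKM in mettl16 against 8.53, 7.95 and 8.37 FPKM in Col-0, at a peak that overlapped AT3G61070.

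Both measures were lower in CDEF1 (AT4G30140), a cutinase, with a fold of -0.972 (FDR 0.00112) and 5.36, 5.39 and 5.36 FPKM in mettl16 against 23.7, 23.1 and 23.4 FPKM in Col-0. AT5G59080 (-0.962, a peak of 59 nt) and AT3G51660 (-0.892) followed it, with RNA changes of -1.36 and -1.34. Both were higher in AT5G55380, an acyltransferase family gene (fold 0.768, RNA 0.54), in ATSBT5.2, a subtilase (0.682 and 0.95), and in AT1G18850 (0.592 and 1.12). RNA calls of these 6 genes had limma adjusted p between 3.66e-10 and 5.22e-05.

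Of the m6A machinery, the 2 listed readers with an unspliced peak each had a higher one in mettl16, against 17.6% higher of all peaks. ECT2 (AT3G13460), a YTH reader that acts in leaf and trichome growth, had a fold of 0.164 (FDR 0.00166), with 122, 125 and 124 FPKM in mettl16 against 69.2, 91.5 and 89.8 FPKM in Col-0. Its transcript rose by 0.57 (limma adjusted p = 0.00692). ECT6 (AT3G17330), of the same family, had a peak fold of 0.321 (FDR 0.0162) and a lower transcript, with 13, 13 and 12.1 FPKM in mettl16 against 18.1, 18.6 and 17.5 FPKM in Col-0 (limma adjusted p = 7.66e-06). These were the unspliced peaks in the list of 12 readers, 7 of which had any listed peak. Among 7 writers the MT-A70 family gene AT1G19340 held 1, with a fold of 0.51 that was not called (FDR 0.0871), and none of 5 erasers had a listed peak.

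Among 16 floral activators 3 had an unspliced peak, and 1 was called, where 2244 of all 25566 listed genes had such a peak. SPL9 (AT2G42200), a target of miR156 that promotes the adult phase and flowering, had a fold of -0.28 (FDR 8.51e-05), with 14.2, 14.1 and 14.7 FPKM in mettl16 against 7.9, 8.86 and 7.94 FPKM in Col-0. Its transcript rose by 0.73 (limma adjusted p = 1.24e-06). SPL15, its close relative, had a peak fold of -0.357 that missed the threshold (FDR 0.0575), with 6.96, 6.72 and 7.34 FPKM in mettl16 against 2.41, 2.41 and 2.84 FPKM in Col-0. The peak of TSF, the paralogue of FT, had -0.963 with an FDR of 0.33, at 2.69, 2.15 and 2.14 FPKM in mettl16 against 0.807, 0.647 and 0.31 FPKM in Col-0.

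Among 16 floral repressors 2 had an unspliced peak. FRI (AT4G00650), an activator of FLC, had a lower one (fold -0.78, FDR 0.00759) with 3.9, 3.53 and 3.87 FPKM in mettl16 against 3.69, 4.33 and 3.77 FPKM in Col-0, groups that overlapped (limma adjusted p = 0.581). RAP2.7 (AT2G28550, also called TOE1), an AP2-type repressor under miR172, had -0.125 at an FDR of 0.0525, with 18, 19.3 and 17.8 FPKM in mettl16 against 34.3, 40.3 and 33.5 FPKM in Col-0 (limma adjusted p = 2.93e-06). Of 12 floral organ identity genes SHP1 (-0.291, FDR 0.213) and STK (1.11, FDR 0.515) held an uncalled peak each. GRP7 (AT2G21660), an RNA-binding protein of the autonomous pathway and the clock, had a lower peak near the threshold (-0.193, FDR 0.049). Its transcript was at 50.2, 51.1 and 47.9 FPKM in mettl16 against 33.3, 31.9 and 33.3 FPKM in Col-0 (limma adjusted p = 3.96e-07). ELF3, a component of the evening complex of the clock, had -0.309 (FDR 0.00355), at a peak overlapping AT2G25940, and its RNA rose by 0.23 (limma adjusted p = 0.00868), a call lost under quantile normalization (0.12, limma adjusted p = 0.115).

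Other lists gave single peaks. All 3 in the cold and abscisic acid list were lower, in ERD10 (-0.315), ABI1 (-0.282) and ERD14 (-0.203). Of all unspliced peaks 52.6% were lower, and of the called ones 82.7%. ERD10 and ERD14 are dehydrins and ABI1 is a phosphatase that holds back abscisic acid signalling. ERD14 had 109, 108 and 266 FPKM in mettl16 against 231, 225 and 96.1 FPKM in Col-0, so that 1 library of each genotype stood apart from the others of its group, and its RNA change was not called (limma adjusted p = 0.764). LHCB3, an antenna protein, had -0.248 at a peak that ran 325 nt past the transcript end over AT5G54280. Its RNA change of -0.53 (limma adjusted p = 3.62e-05) was -0.01 after quantile normalization (limma adjusted p = 0.892). CA1, the leaf carbonic anhydrase, had -0.132 (log10 FDR -36.0) with overlapping transcript levels, 4089, 3786 and 3913 FPKM in mettl16 against 4018, 3784 and 3957 FPKM in Col-0 (limma adjusted p = 0.941). After quantile normalization its RNA change was 0.39 (limma adjusted p = 4.63e-06). AT1G77680, a ribonuclease II family gene of the mRNA decay list, had 0.258 (FDR 0.0316), and PBS3, an enzyme of salicylic acid synthesis, had an uncalled 0.955 (FDR 0.174). The lists of erasers, light signalling, the methionine cycle, SR splicing factors, root markers and anther and pollen markers held no unspliced 3' UTR peak.

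A KEGG entry was given for 762 of the genes, and 12 pathways held at least 20 of them. Of these, ribosome genes were the most uniform. Of their 45 peaks in 43 genes 39 were lower and 1 higher, against 51.6% and 17.6% of all peaks, with a median of -0.279. Of 42 tested transcripts 33 rose and 1 fell, against 41.1% and 23.4% of all tested genes, with a median RNA change of 0.509. After centring on the median of all peaks 22 of the ribosome peaks were lower and 18 higher. The transcripts rose in 32 after median centring and in 29 after quantile normalization. AT4G18100, a ribosomal protein L32e gene, had a fold of -0.279, with 395, 377 and 379 FPKM in mettl16 against 250, 239 and 260 FPKM in Col-0. AT3G49910 had -0.202, with 798, 821 and 814 FPKM in mettl16 against 575, 563 and 557 FPKM in Col-0. AT2G04390, an S17 family gene, had -0.421, with 169, 164 and 165 FPKM in mettl16 against 116, 115 and 117 FPKM in Col-0. The higher peak, in AT1G80750 (0.234, FDR 0.0479), ran 182 nt past the transcript end over AT1G80760. Ribosomal proteins are coded by families of similar genes, and how their reads were divided is uncertain. Members were named here after their values had been seen.

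Against 51.6% lower and 17.6% higher of all peaks, there were 24 lower and 2 higher of 35 peaks in protein processing in the endoplasmic reticulum, 22 and 2 of 32 in RNA transport, and 21 and 1 of 30 in the spliceosome. After centring these were 18 and 8, 14 and 10, and 14 and 8. Pathway entries were taken as deposited, and pathways share peaks. The lower peaks of cpHsc70-2 and HSC70-1 count both in protein processing and in the spliceosome. The higher spliceosome peak was in AT2G33710, which is described as an integrase-type DNA-binding protein. Plant-pathogen interaction was the most even, with 14 lower and 12 higher of 35 peaks and a median of -0.181, or 11 lower and 15 higher after centring on the median of all peaks. MPK3 (AT3G45640), a kinase of immune signalling, had a higher peak (0.251, FDR 5.01e-05) with 29, 29.8 and 29.9 FPKM in mettl16 against 65, 70.9 and 65.9 FPKM in Col-0. FLS2 (AT5G46330), the flagellin receptor, had 0.618 (FDR 0.000158) with 3.52, 4.17 and 3.83 FPKM in mettl16 against 6.06, 6.6 and 6.16 FPKM in Col-0. In starch and sucrose metabolism, TPS11, a trehalose phosphate synthase family gene, had 0.589 (FDR 0.00174), with 4.55, 4.43 and 5.05 FPKM in mettl16 against 13, 14.4 and 13.9 FPKM in Col-0. RNA of these 3 genes changed by -1.16, -0.59 and -1.38 (limma adjusted p = 7.22e-09, 3.61e-05 and 4.2e-08). The remaining pathways had medians between -0.318 (MAPK signalling) and -0.199 (mRNA surveillance), against -0.227 for all peaks.

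Most genes carried a single unspliced 3' UTR peak. There were 2200 genes with 1 distinct interval and 52 with 2 or more, and 7 of the rows repeated an interval of the same gene. GUS2 (AT5G07830), a glucuronidase, had 3 intervals, all lower, with folds of -0.261, -0.546 and -0.549. The last ones overlapped each other and ran 349 and 364 nt past the transcript end over AT5G07840 and AT5G07842. AT5G26622 had 2 rows for the same interval with unlike folds, -0.730 and -0.723.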

How the data were processed

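Members, gene lists and pathways were chosen with earlier results of these data known. Expression values are FPKM as deposited by the authors for the 6 RNA-seq libraries, matched by genotype and replicate number. m6A values come from the authors' deposited table, whose columns are, per the file headers, the log2 fold change, its p-value and its FDR as a log10 score. A further deposited column holds a p-value for the peak itself. The sign, mettl16 over Col-0, follows the genotype order in that table's name. The submitters' processing notes list cutadapt, fastp, HISAT2, StringTie, HOMER, edgeR and TAIR10. Which program called peaks, how the fold is defined and how strand and replicates entered were not given in these sources. Coordinates are the files' own, counted from 1. Symbols came from RefSeq (TAIR10.1), which held 2247 of the 2252 genes.

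Genes averaging 0.5 FPKM or more were tested on log2(FPKM + 1), pseudocount 1, with limma 3.58.1 (R 4.3.3), trended and robust prior variance, two-sided, Benjamini-Hochberg adjusted over 19505 genes, with calls under 0.05. Fold changes on this scale understate those of low genes. Peaks were called at the deposited FDR under 0.05, and counts after centring kept that FDR and changed only the sign. Shares and medians are descriptions. An overlap means at least 1 shared base with another gene's span in the files.

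Genes were named by rule: the 10 lowest and 10 highest called folds, the 5 smallest FDR in each direction, peaks in the gene lists, 3 genes per pair of directions with at least 5 FPKM and an RNA change of at least 0.5, and the gene with most intervals. Pathway examples were named after their values were seen. Python 3.11.15, NumPy 2.4.6, pandas 2.3.3, SciPy 1.17.1 and matplotlib 3.10.9 were used. No genome was used here, so no peak sequence is shown.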

Additional observations from a re-analysis of the deposited data

How the results depend on the processing

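For the unspliced peaks and their genes, lower peaks outnumbered higher ones and risers outnumbered fallers under all alternatives run. Counts for other peak classes and single pathways turned under centring, as given beside them, and over all tested genes quantile normalization called 6088 risers and 6252 fallers. The median log2 fold of -0.271 became -0.259 for genes with at least 5 FPKM, -0.261 for peaks with a peak p-value at or below 1e-10 and -0.044 after centring on the median of all peaks. Higher peaks numbered 549 after centring and 145 at an FDR under 0.01, against 255. The 549 include peaks that the deposited FDR called lower, with a negative fold above the median of all peaks. With an absolute fold of at least 0.5, 235 peaks were lower and 84 higher. Leaving out 1 RNA-seq library at a time gave 853 to 900 risers and 465 to 482 fallers. It gave 519 to 545 genes with a lower peak and higher RNA, 212 to 225 with both lower, 58 to 66 with both higher and 87 to 98 with a higher peak and lower RNA. Deviations of mettl16 and Col-0 RNA-seq libraries with the same number correlated at -0.0823, 0.00866 and 0.00173. This does not show whether the numbers mark a shared batch, and immunoprecipitates could not be included. The fit with a replicate block called 922 risers and 505 fallers, 557 genes with a lower peak and higher RNA, 232 with both lower, 66 with both higher and 101 with a higher peak and lower RNA.

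RNA changes were followed for 73 named genes under 14 settings. A call was lost in some setting for 7 genes, gained for 7, and the sign turned for 5. PSAL was 0.11 under quantile normalization, AT1G19340 and AT1G77680 were -0.00 there, and AT1G77680 was -0.00 under median centring. CA1 was -0.07 under median centring and ran from -0.03 to 0.03 when 1 library was left out, and was 0.39 and called under quantile normalization (limma adjusted p = 4.63e-06); it was negative (-0.02) without Col-0 replicate 2 and (-0.03) without mettl16 replicate 1. FRI ran from -0.08 to 0.01, positive without Col-0 replicate 2. Of the turned values only that of PSAL was called. The causes were not tested. FPKM keeps no depth, so counting error cannot be given, and m6A has no value per replicate.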

Other observations

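Some unspliced 3' UTR peaks overlapped a gene far more abundant than the one they were assigned to. Of the 389 that overlap another listed gene, 89 overlap one with at least 10 times the mean FPKM of the assigned gene, and 56 of these were called (62.9%), against 64.3% of all 389 and 63.7% of all unspliced peaks. The peak of BCA3, a carbonic anhydrase, had a fold of -0.589 in the authors' deposited table (log10 FDR -75.3) although BCA3 averaged 1.65 FPKM. It ran 236 nt past the end of BCA3 over AOR, a gene on the opposite strand that averaged 263 FPKM. The minimum of 10 times was chosen after seeing the data.

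A higher peak in CFM3A, a CRM family splicing factor gene of chloroplasts, had a fold of 0.642 (log10 FDR -28.2) and ran 438 nt past the transcript end over AT3G23080. Its transcript had 28.6, 29.4 and 28.7 FPKM in mettl16 against 21.1, 21.8 and 20.7 FPKM in Col-0. The strand of these peaks is not given, so the transcript behind each is uncertain.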
